A study of Mus musculus with 12 samples.

Results

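Distal intergenic methylation gains were regions of the mouse genome far from genes in which the level of modified cytosine was higher in retinas without TET enzymes than in control retinas. They were taken from the authors' list of differentially methylated regions of whole-genome bisulfite sequencing (WGBS) as the autosomal regions whose midpoint lay outside every annotated gene and more than 50 kb from the start site of any protein-coding or long noncoding gene. Their control level had to be at least 20% and below 80%, their length below 3000 bp, and their level higher in the mutant by less than 40 percentage points. Of 193836 regions in the list, 18586 (9.59%) met these terms, and they made up 9.86% of the 188451 autosomal gains. The regions were chosen by their WGBS levels, length and position, so these levels are given below as a description and without a test.

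Whole retinas of C57 BL/6J mice were collected at postnatal day 21, when retinal neurons have been born. The control animals (Cre-, labelled as wild type) came from breeders without the Cre transgene. The mutant animals (Tet tcKO) carried floxed alleles of Tet1, Tet2 and Tet3 and the Chx10-Cre-GFP transgene, which is active in retinal progenitor cells and is known to be mosaic. To lessen this, the study bred Cre+ animals with each other to obtain 2 copies of it. There were 3 libraries per genotype in either assay, a total of 12, and the study's methods describe DNA from retinas pooled over animals. The 2 lists hold 1 mean level per group and region and no read counts, so no spread between replicates, depth or interval can be attached to any level below, and a difference between levels was not tested. The lists hold no expression values with which the tissue label could be checked. In bulk tissue, a change in the share of a cell type and a change of the level within cells cannot be told apart.

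TET proteins are dioxygenases that turn 5-methylcytosine (5mC) into 5-hydroxymethylcytosine (5hmC), a step towards removal of the methyl group. In WGBS, 5mC and 5hmC both appear as modified cytosine. In bACE-seq, bisulfite converts unmodified cytosine and shields 5hmC, a deaminase then converts 5mC, and 5hmC alone is read. Sequence far from genes is mostly highly methylated and holds enhancers, short elements that bind transcription factors and act on start sites at a distance. Active enhancers are known for intermediate methylation and for 5hmC, and neurons are rich in 5hmC.

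The sequences below show what such regions look like, read on the plus strand from the RefSeq genome GRCm38.p6 (mm10). Each is the 300 bp around the midpoint of a region with at least 10 CpGs. The first 3 were among those with the largest rise in WGBS and the last had the next to largest fall in 5hmC. Capitals mark CpGs, the cytosines that both assays report on.
chr11:91263328-91263627: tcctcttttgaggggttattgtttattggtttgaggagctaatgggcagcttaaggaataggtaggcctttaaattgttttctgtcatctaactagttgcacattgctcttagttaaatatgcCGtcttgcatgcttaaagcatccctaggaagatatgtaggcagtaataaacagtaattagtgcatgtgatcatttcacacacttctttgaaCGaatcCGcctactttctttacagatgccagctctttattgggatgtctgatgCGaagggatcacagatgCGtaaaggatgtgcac
chr15:74169295-74169594: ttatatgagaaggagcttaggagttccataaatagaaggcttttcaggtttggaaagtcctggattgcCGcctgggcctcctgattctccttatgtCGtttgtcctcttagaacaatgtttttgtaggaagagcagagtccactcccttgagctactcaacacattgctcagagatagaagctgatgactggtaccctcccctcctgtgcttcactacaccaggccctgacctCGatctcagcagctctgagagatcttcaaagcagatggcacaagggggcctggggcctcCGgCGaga
chr5:134014778-134015077: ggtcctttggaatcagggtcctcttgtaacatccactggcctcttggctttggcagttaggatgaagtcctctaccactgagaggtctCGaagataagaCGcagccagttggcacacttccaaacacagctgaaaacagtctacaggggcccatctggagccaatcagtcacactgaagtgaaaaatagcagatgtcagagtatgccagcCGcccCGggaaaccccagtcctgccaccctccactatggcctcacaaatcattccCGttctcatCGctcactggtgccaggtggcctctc
chr15:93084802-93085101: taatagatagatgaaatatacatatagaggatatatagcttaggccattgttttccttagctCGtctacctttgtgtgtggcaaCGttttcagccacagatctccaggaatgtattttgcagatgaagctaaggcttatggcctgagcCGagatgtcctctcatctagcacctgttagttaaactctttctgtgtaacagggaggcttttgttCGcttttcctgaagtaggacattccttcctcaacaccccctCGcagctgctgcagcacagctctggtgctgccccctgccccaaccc

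The first window on chromosome 15 held 5 CpGs, and no base of it was marked as repeat. Its region (chr15:74169091-74169797, 169 kb from Gm32405) went from an authors' mean of 40.1% (Cre-) to 79.9% (Tet tcKO), up by 39.9 points. A 5hmC loss overlapped 14.4% of its bases, with a 5hmC level of 25.4% in Cre- and 9.17% in Tet tcKO. The window on chromosome 11 held 5 CpGs, and its region (chr11:91263166-91263788, 314 kb from Kif2b, a kinesin gene) rose from 24.4% to 64.3%. The window on chromosome 5 held 6 CpGs, and its region (chr5:134014291-134015563) rose from 28.4% to 68.1%. The second window on chromosome 15 held 5 CpGs. Its region (chr15:93084445-93085457) had 19 CpGs, a WGBS level of 23.1% in Cre- and 54.2% in Tet tcKO, and an overlapping region in which 5hmC went from 43.5% to 9.42%. That 5hmC region covered 13.7% of its bases, so the 2 assays describe mostly different CpGs there, and the 5hmC level exceeded the total level of the longer WGBS region.

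In all, the distal gains covered 8.85 Mb and held 158791 CpGs. Weighted by CpGs, they went from a mean of 55.3% (Cre-) to 74.4% (Tet tcKO), which is a rise of 19.1 points. The median region had 59.9% in Cre- and 79.5% in Tet tcKO. The median rise was 17.6 points, with 11.7 points at the 10th and 28.4 points at the 90th percentile. The intermediate Cre- level was fixed by the rule for every region. A level of 80% or more in Tet tcKO was found in 9021 regions, and 942 stayed below 50%. Gains of the list's other sequence classes within the same limits on level, length and rise went from 58.1% to 76.9% in gene bodies, from 55.7% to 74.1% in intergenic sequence nearer to start sites (near intergenic), and from 49.4% to 66.9% within 2 kb of start sites (promoters), the lowest levels of the 4 classes. The rise was 18.8 points in gene bodies, 18.4 points in near intergenic sequence and 17.5 points at promoters. In the whole list, 98.8% of the autosomal regions were higher in Tet tcKO, so the direction was not particular to distal sequence. Of 2312 autosomal losses 620 were distal, and of 188451 autosomal gains 23377 were.

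**Figure D1:**
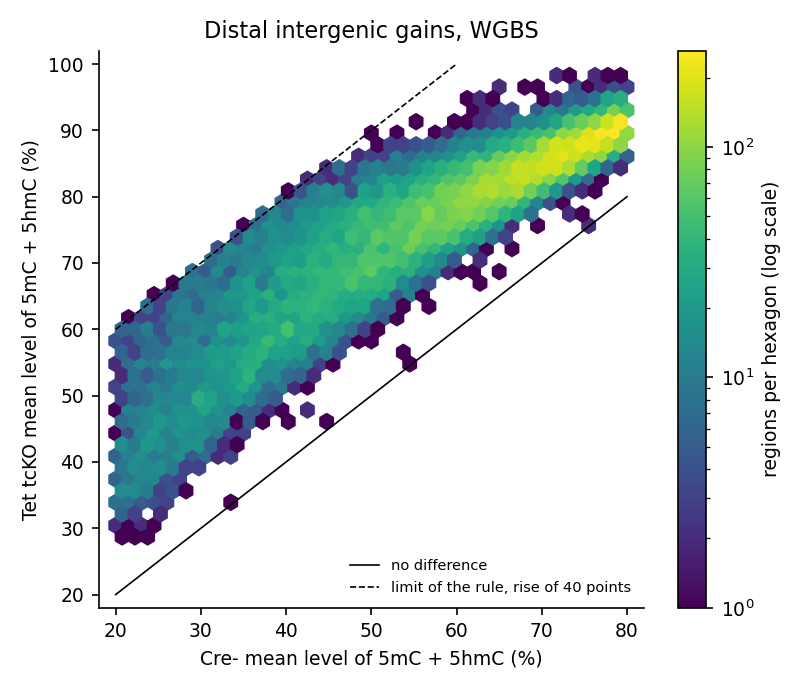
Authors' mean WGBS level (5mC and 5hmC together, in percent) of the 18586 distal intergenic gains in Cre- (horizontal axis) and Tet tcKO (vertical axis), as counts of regions per hexagon on a log colour scale. Regions that started high in Cre- lie along a narrow band that ends near 90% in Tet tcKO, and regions that started low are spread more widely up to the dashed limit of 40 points.

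The rise was larger where the Cre- level was lower, a relation that the limits of the rule and the ceiling of the scale both shape. The 3258 regions with 20% to 40% in Cre- rose by 23.4 points on average, the 6080 with 40% to 60% by 21.9 points, and the 9248 with 60% to 80% by 14.8 points. Across regions, Spearman's rho between the Cre- level and the rise was -0.68. The regions are neighbours along the same chromosomes and share their libraries, so they are not replicates.

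Of 23377 distal gains of any level, 4791 were left out, 3613 of them because the Cre- level was 80% or more and 866 because it was below 20%. A rise of 40 points or more left out 378 and a length of 3000 bp or more left out 16, and a region could be left out for more than 1 of these reasons. Just inside the lower limit on the Cre- level, a region 241 kb from AC103939.1 had 20.0% in Cre- and 39.6% in Tet tcKO, and just outside it a region 72.2 kb from Ppp2r5c had 19.99% and 35.4%. At the upper limit, a region near Mtnr1b went from 79.9996% to 91.8%, and the one left out, near Gm40330, from 80.0012% to 93.0%. At the limit on the rise, a region 62.3 kb from Lipc rose by 39.996 points and one 65.4 kb from Ust by 40.002 points. The smallest rise kept was 0.23 points, 62.6 kb from Map2, and the region next to it outside the limit, 184 kb from Gm44166, fell by 0.20 points. The longest region kept had 2934 bp, near Hmx1, and the shortest left out for length had 3002 bp, near Cdh26. In distance, the nearest kept lay 50.001 kb from Gm47705, and the next one left out 50 kb from Zfc3h1.

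To ask whether distal gains lay where 5hmC was lost, they were set against the separately called bACE-seq list, which the rule did not use. Of the distal gains, 13039 (70.2%) shared 1 bp or more with a 5hmC loss, against 84.2% of all gains within the limits. The share was 88.6% for promoter gains, 87.2% for gene body gains and 82.5% for near intergenic gains. It was lower for distal gains than for each of these classes on 19 of 19 autosomes. Autosomes share the same libraries and are not replicates. The distal share ran from 63.8% on chromosome 16 to 76.2% on chromosome 7. A 5hmC loss covered at least 50% of the region in 55.0% of the distal gains and the whole region in 40.1%. Only 3 distal gains overlapped a region in which 5hmC was higher in Tet tcKO, among 194 such autosomal regions. Seen from the other list, 15398 of 77118 distal 5hmC losses (20.0%) overlapped a WGBS gain of any level and class. The share was 21.7% in near intergenic sequence, 25.5% in gene bodies and 31.3% at promoters. The median 5hmC loss was shortest in distal sequence, with 425 bp, against 485 bp, 569 bp and 566 bp in the same order. The share of all distal sequence inside 5hmC losses is not given here, so the overlap is compared between classes of gains only.

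In the overlapping regions, the 5hmC level went from a mean of 16.2% (Cre-) to 4.02% (Tet tcKO), which is 24.8% of the Cre- level (the share kept). The study reports that a small part of unmodified cytosines failed to convert in bACE-seq, and the levels here carry no correction for it. How much of the Tet tcKO level such failed conversion makes up was not tested. Gains of the other classes held more 5hmC in Cre-, with 20.2% in gene bodies, 18.6% at promoters and 17.2% in near intergenic sequence. On every one of the 19 autosomes, the Cre- 5hmC level was lower at distal gains than at each other class. The share kept was close in all classes, between 24.8% and 25.8%. It was lower at distal gains than at gene body and promoter gains on 19 of 19 autosomes. Against near intergenic gains it was lower on 16 and higher on 3. At single distal gains, the Cre- 5hmC level had a median of 15.9%, with 10.4% at the 10th and 23.1% at the 90th percentile. It was above 30% in 147 regions and below 10% in 1080. In 12 regions at least 50% of the 5hmC level was kept, and in 405 less than 10% was. These counts hold for regions called on a fall in 5hmC and leave out the distal gains without such a call.

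**Figure D2:**
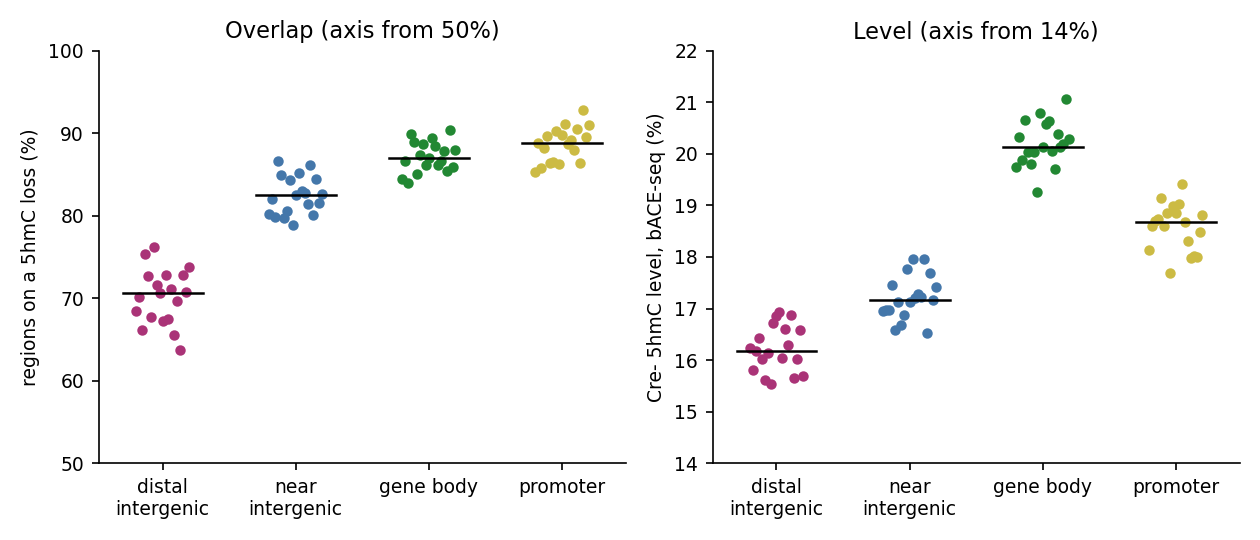
Share of WGBS gains that overlapped a 5hmC loss (left, axis from 50%) and mean Cre- 5hmC level in the overlapping bACE-seq regions (right, axis from 14%), by sequence class. Each point is 1 of 19 autosomes and each black line the median over autosomes, which share libraries and are not replicates. The distal points lie between 63.8% and 76.2% on the left and between 15.5% and 16.9% on the right, and on each autosome the distal value is below that of the other classes.

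The levels of the 2 assays can be set side by side at the distal gains with a 5hmC loss. There the WGBS level went from 56.0% to 74.8% and the 5hmC level from 16.2% to 4.02%. The difference of the 2 levels, a rough measure of 5mC alone, went from 39.8% to 70.8%. The 5hmC level equalled 28.9% of the total level in Cre- and 5.37% in Tet tcKO. In Cre- this fraction was smaller than in gene body gains (34.5%), promoter gains (37.4%) and near intergenic gains (30.7%). The rise of the total was larger than the fall of 5hmC in 10784 of the overlapping distal gains, and smaller in 2255. The 2 assays were called over different extents, and 57.1% of these distal gains lay whole inside a 5hmC loss, so the 2 levels do not describe the same CpGs throughout. Across regions the rise and the change in 5hmC were weakly related (rho -0.23).

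The 5547 distal gains without a 5hmC loss were smaller and poorer in CpGs. Their median was 5 CpGs and 337 bp, against 8 CpGs and 419 bp for those on a 5hmC loss. They also held more repeat sequence (16.3% of bases against 12.1%). Their WGBS levels differed less, with a median rise of 18.8 points against 17.2 points. Many lay beside a 5hmC loss, since 35.9% were within 1000 bp of one, while 17.0% were more than 10 kb away. Absence from the bACE-seq list does not show that 5hmC did not change.

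The number of CpGs moved with the overlap in every class. Of distal gains with 4 or 5 CpGs, 52.0% overlapped a 5hmC loss, and the share was 71.9% with 6 to 9 CpGs, 90.1% with 10 to 19 and 95.6% with 20 or more. Gene body gains reached 74.8%, 86.7%, 95.7% and 99.1% in the same steps. The gap between distal and gene body gains was therefore widest in the smallest regions, and it was present in each step. The Cre- 5hmC level of the overlapping distal gains changed little over these steps, from 16.9% to 15.9%.

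Distal gains became rarer with distance from genes. Their median distance from the nearest start site was 107 kb, the 90th percentile was 334 kb and the largest 1743 kb. Per 10000 CpGs of distal sequence there were 61.2 gains at 50 to 100 kb, 47.6 at 100 to 200 kb, 33.5 at 200 to 500 kb and 18.3 beyond 500 kb. Over all distal sequence the rate was 45.6, against 66.7 in near intergenic sequence, 57.3 at promoters and 87.9 in gene bodies. A gain of any level held 4.81% of distal CpGs, against 9.13% of all autosomal CpGs. The regions lay on both sides of their nearest start site, with 50.4% upstream of it, close to the 52.1% of distal CpGs that lay upstream.

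The overlap with 5hmC losses fell with distance as well. It was 77.1% at 50 to 100 kb (8657 regions), 70.1% at 100 to 200 kb (5574), 59.0% at 200 to 500 kb (3590) and 44.8% beyond 500 kb (765). Among regions with 4 or 5 CpGs alone the share also fell, from 60.3% to 52.4%, 42.1% and 33.4%. Where there was an overlap, the Cre- 5hmC level was almost the same at every distance, from 16.3% in the nearest to 15.7% in the farthest. The WGBS rise was 18.7 points in the nearest and 20.5 points in the farthest. Fewer of the far regions thus had a called 5hmC loss. The similar 5hmC levels come only from regions called on a fall in 5hmC, a choice that shapes them. They do not give the 5hmC of the regions without such a call.

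**Figure D3:**
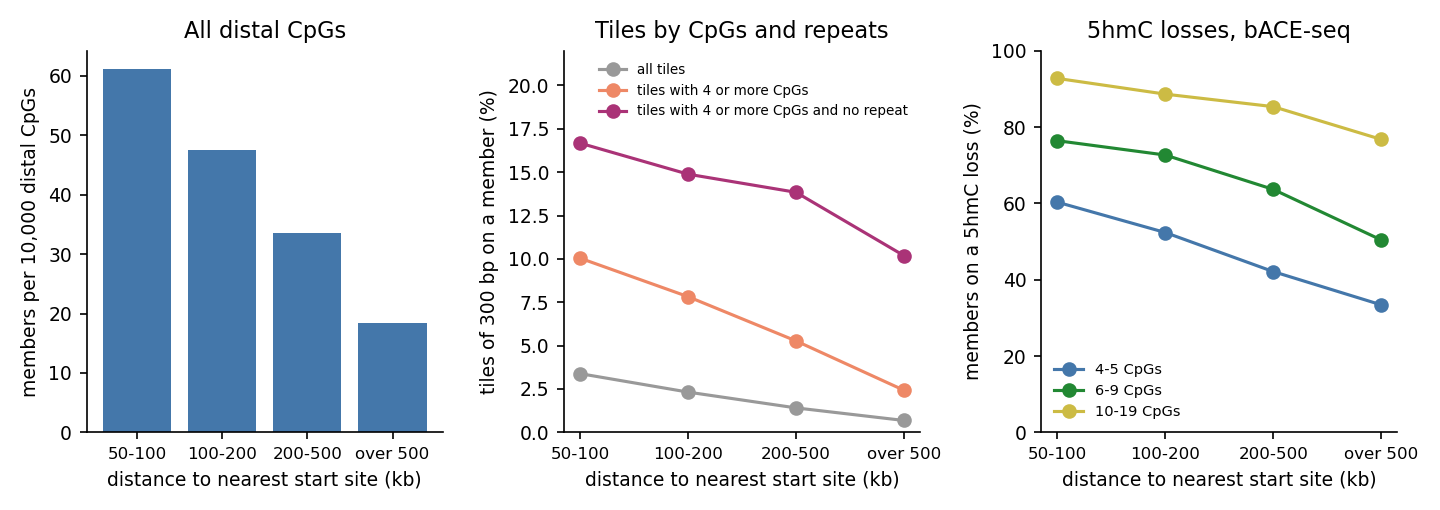
Distal gains by distance from the nearest start site. Left, regions per 10000 distal CpGs, falling from 61.2 to 18.3. Middle, share of 300 bp tiles of distal sequence that touched a distal gain, for all tiles (3.38% to 0.684%), tiles with at least 4 CpGs (10.0% to 2.43%) and such tiles without repeats (16.7% to 10.2%). Right, share of distal gains that overlapped a 5hmC loss for 3 ranges of CpG number, each falling with distance.

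The DNA of distal gains was richer in CpGs and poorer in repeats than distal sequence as a whole. They had a median of 1.90 CpGs per 100 bp, against 0.612 in all distal sequence (665.7 Mb), and a median GC content of 45.1% against 39.4%. Repeats made up 13.2% of their bases and 39.96% of distal sequence. No repeat base was found in 25.5% of the regions, and 1.40% were repeat over at least 90% of their length. The authors' calls required several CpGs close together, and the part of that requirement in this contrast was not tested. When distal sequence was divided into 2210635 tiles of 300 bp, 0.179% of tiles without a CpG touched a distal gain, 6.48% of those with 4 or 5 CpGs, 11.4% of those with 6 to 9 and 6.27% of those with 10 or more. The densest tiles were thus not the ones most often touched. Among tiles with at least 4 CpGs and no repeat, the share was 16.7% at 50 to 100 kb from a start site and 10.2% beyond 500 kb. Relative to its start, the fall with distance was smaller there than over all tiles (3.38% to 0.684%).

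Short sequence motifs of retinal and general transcription factors were counted on both strands in the 300 bp around each midpoint, beside the tiles of distal sequence. A match says only that the letters are there. TAATTA, a core of many homeodomain factors, was present in 17.0% of distal gains (3151 regions) and in 12.5% of tiles. It was less frequent in gains of gene bodies (12.1%), near intergenic sequence (12.6%) and promoters (8.31%). TAATCC, the form that CRX and OTX2 of photoreceptors and bipolar cells prefer, was found in 14.4% of distal gains and 11.3% of tiles, and in 15.7% to 16.0% of the other classes. CAGCTG, an E-box of bHLH factors, had the largest ratio over all windows, with 19.3% against 8.46% of tiles. CAGATG, the E-box typical of neural bHLH factors, was found in 27.1% against 21.3%. TAATTA was thus more frequent at distal gains than in each other class of gains, and CAGCTG was not. TAATTA was not alone in this. AACAAT was found in 20.4% against 13.1% to 15.8%, and the MEF2 motif in 6.18% against 4.32% to 4.93%. TGANTCA and TTGGCA were also highest at distal gains, by less. Distal gains had the lowest median GC content of the classes, 45.1% against 47.6% to 48.7%. No such difference between classes was tested, nor the part of base composition in it.

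Base composition and repeats differ between the regions and the tiles, and the ratios moved when both were restricted to windows with at least 4 CpGs and no repeat, a choice made after seeing the data. This left 4296 distal gains (mean GC content 47.1%) and 46935 tiles (46.2%), some of which touch distal gains. When only the tiles were restricted, to those with at least 4 CpGs, and all distal gains were kept, the ratio was 2.23 for TAATTA and 1.62 for CAGCTG. This comparison is not matched and was also chosen after seeing the data. With both restricted, the ratio of shares was 1.80 for TAATTA, 1.46 for TAATCC, 1.45 for CAGCTG and 1.19 for CAGATG. For the MEF2 motif, of factors active in photoreceptors and other neurons, the direction turned: the ratio was 0.742 over all windows and 1.63 over the restricted ones. The same held for AACAAT, a SOX core, with 0.826 and 1.17. For CTCF, an insulator protein with a long motif, 23 distal gains had a match and the ratio went from 1.73 to 0.817. The remaining motifs were close to the tiles once restricted, with 1.09 for AGGTCA (a nuclear receptor core), 1.12 for TGCTGA (a MAF core, as for NRL), 1.11 for TTGGCA (an NFI core) and 1.04 for TGANTCA (AP-1). Motifs that share letters, such as the TAAT of the homeodomain forms, can overlap in a window.

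**Figure D4:**
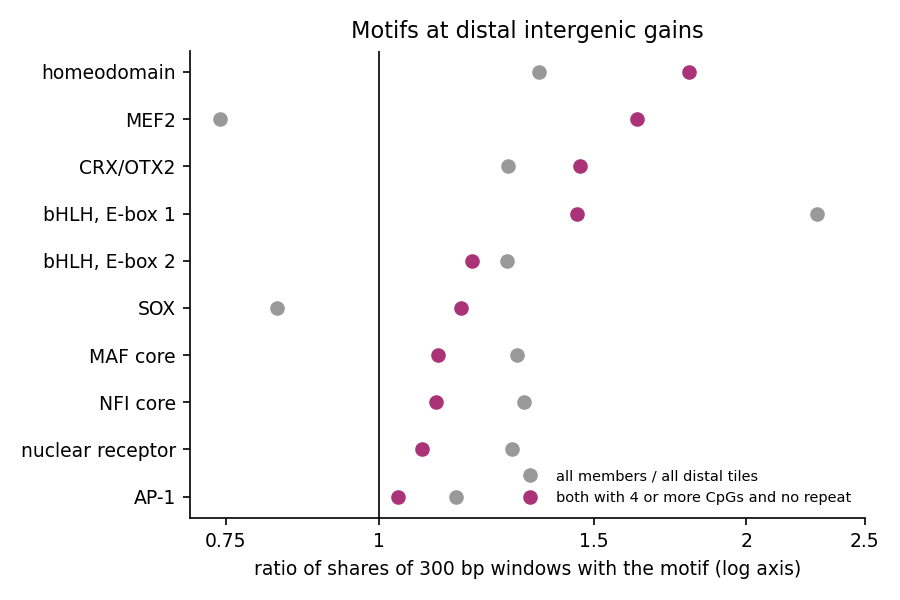
Ratio of the share of 300 bp windows with a motif at distal gains to the share in tiles of distal sequence (log axis), over all windows (grey) and over windows with at least 4 CpGs and no repeat (purple). E-box 1 is CAGCTG and E-box 2 is CAGATG. The homeodomain core lies at 1.35 and 1.80, and the MEF2 and SOX motifs change sides of 1. CTCF, with 23 matches, is not drawn.

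The median distance from the midpoint of a distal gain to the nearest other was 5.97 kb, and 63.4% had a neighbour within 10 kb. What spacing the number of regions and the placing of CpGs alone would give was not tested. The rate per 10000 distal CpGs was between 35.7 on chromosome 14 and 58.2 on chromosome 9. The windows of 1 Mb with the most regions stood far above these averages. At chr4:153000001-154000000 there were 87 distal gains, a rate of 128 per 10000 distal CpGs, of which 31 were nearest to Ajap1, an adherens junction protein gene, and 31 to Gm13115. They went from a mean of 56.7% to 74.7%, and 82 of them were on a 5hmC loss. At chr8:89000001-90000000 there were 74, of which 53 were nearest to Sall1, a zinc finger transcription factor gene, and 21 to Tox3. They went from 53.8% to 72.8%, and 63 were on a 5hmC loss. At chr4:131000001-132000000 there were 70, with levels of 56.1% and 73.9%, and 63 were on a 5hmC loss. The crowded windows had levels close to those of all distal gains and a larger share on 5hmC losses. They were chosen for their counts, so these counts are a description.

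**Figure D5:**
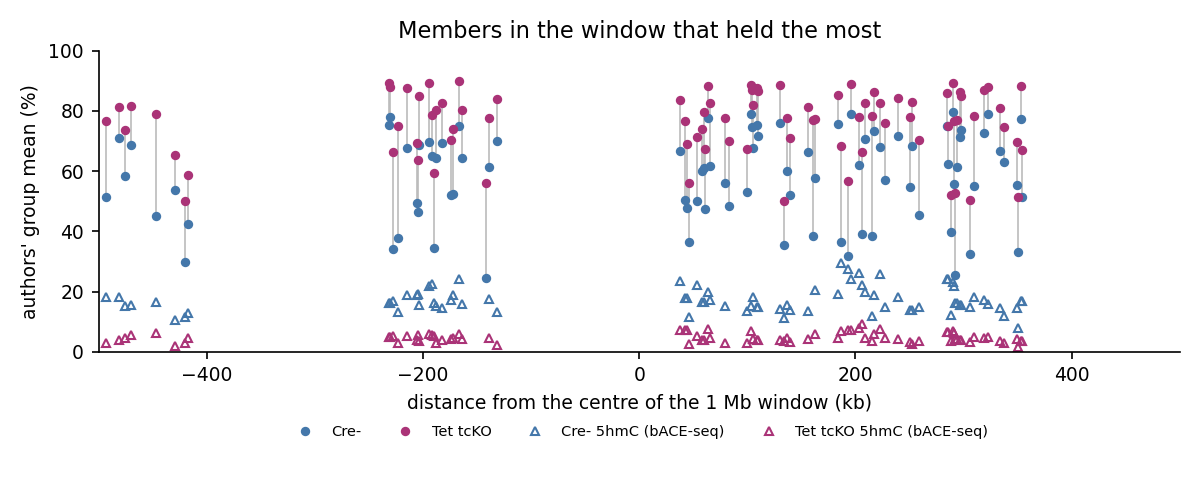
The 87 distal gains of the 1 Mb window that held the most, by distance from its centre. Filled points are the WGBS levels (5mC and 5hmC together) of Cre- (blue) and Tet tcKO (purple), joined by a grey line, and open triangles the levels of the overlapping 5hmC losses at 82 of them. The regions lie in groups. Only WGBS gains and 5hmC losses are drawn, so the higher total modification and lower 5hmC in Tet tcKO were fixed by that choice.

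Among all genes, 3749 were the nearest to at least 1 distal gain, 953 of them to exactly 1 and 106 to 20 or more. A protein-coding gene was nearest to 8543 of the regions. The nearest gene is a label of position and need not be the gene that a region acts on. Sall1 had the most, 64, followed by Cdh26, a cadherin gene, with 57 and Tox3, a high mobility group gene, with 56. Map3k7, a kinase gene of TGF-beta and immune signalling, had 45, as did Tle4, a corepressor gene. Per 10000 distal CpGs nearest to each, the rates were 94.7 for Sall1, 130 for Cdh26, 115 for Tox3, 78.4 for Map3k7 and 94.2 for Tle4. The means of these groups lay at 49.8% to 59.0% in Cre- and 71.1% to 77.2% in Tet tcKO.

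Genes of retinal cell types were examined by list. Of 93 autosomal genes, 24 had distal CpGs nearest to them and 22 of these had a distal gain. Over all genes, 5654 had distal CpGs nearest to them and 3749 had a distal gain. The listed genes held 119 regions, or 64.9 per 10000 distal CpGs nearest to them, against 45.6 for all distal sequence. The latter rate fell with distance, from 61.2 at 50 to 100 kb to 18.3 beyond 500 kb, and the lists were not matched for distance. The rate was 119 for progenitor and Müller glia genes (35 regions), 77.7 for amacrine and horizontal cell genes (37), 74.6 for ganglion cell genes (1), 69.1 for photoreceptor function genes (6), 43.5 for bipolar cell genes (20) and 39.7 for photoreceptor regulators (20). Most of the lists' genes had no distal CpGs nearest to them. With the start sites of protein-coding genes only, 394 distal gains were nearest to a gene of the lists. Of these, 169 were nearest to progenitor and Müller glia genes. Some genes without distal CpGs nearest to them, such as Sox9 and Sox2, then had distal gains. Sox9 (57), Sox2 (36), Prox1 (30), Meis1 (30) and Sall3 (22) then had more than Tfap2c (20), which led with noncoding genes included. The count and the leading genes thus depend on whether noncoding genes are included.

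The genes below are ranked with noncoding genes included. On these terms Tfap2c, a transcription factor gene of amacrine cells, had the most of any listed gene, 20, all downstream of it. Tfap2c had a mean of 53.6% (Cre-) and 69.9% (Tet tcKO), with 17 on a 5hmC loss. Its region of largest rise among those with at least 10 CpGs (chr2:172704522-172705090, 154 kb away, 15 CpGs) went from 47.3% to 79.1%, and 5hmC there from 15.2% to 3.80%. Isl1, a LIM homeodomain gene of bipolar, amacrine and ganglion cells, had 17, of which 7 were on a 5hmC loss. Its rate was 41.9 per 10000 distal CpGs, below the 45.6 of all distal sequence. Its largest rise (chr13:116477035-116477700, 168 kb away) was from 21.4% to 59.1%, with no 5hmC loss. Of the 5 leading genes described here, Isl1 was the one at which fewer distal gains lay on a 5hmC loss than off it.

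Prox1, a homeodomain gene of horizontal and amacrine cells, had 13, all upstream, at a rate of 165 per 10000 CpGs. Its largest rise (chr1:190250549-190251033, 80.1 kb away) was from 62.6% to 85.9%, and 12 of 13 were on a 5hmC loss. Six3, a homeodomain gene of eye formation, also had 13, all upstream and all on a 5hmC loss, at a rate of 108. Its largest rise (chr17:85528117-85529178, 85.0 kb away, 21 CpGs) was from 27.7% to 64.3%. Slc1a3, the glutamate transporter gene of Müller glia, had 12, with 11 on a 5hmC loss, at a rate of 138. Its largest rise (chr15:8801879-8802472, 91.4 kb away) was from 58.4% to 80.6%. Among photoreceptor genes, Mef2c had 7 distal gains, 2 of them on a 5hmC loss, and Thrb, the thyroid hormone receptor gene of cones, had 5, all on a 5hmC loss. Cngb1, a channel subunit gene of rods, had 3 at 66.4 to 69.0 kb downstream, with 42.9% in Cre- and 75.2% in Tet tcKO. The rates per 10000 distal CpGs were 74.4 for Mef2c, 19.5 for Thrb and 151 for Cngb1, against 45.6 for all distal sequence. Each group moved in the direction that the rule fixed, and the genes differed in how many regions lay on a 5hmC loss.

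The regions with the largest rise among those with at least 10 CpGs lay just below the limit of 40 points. Besides those shown above, they included one on chromosome 18, 64.5 kb from 4930546C10Rik (from 28.0% to 67.6%). The 4 given here overlapped a 5hmC loss, in which 5hmC changed by between -16.2 and -5.48 points. The largest fall in 5hmC was at chr5:46032991-46034248, from 43.4% to 7.43%, in 5hmC losses that covered 15.8% of the region. Its WGBS level went from 35.1% to 66.2%. The other large falls were at chr12:16424401-16425636 (from 38.7% to 7.05%), chr3:38048826-38050267 (from 38.6% to 9.64%) and chr10:37397778-37398558 (from 33.1% to 4.79%). In the 5 regions with the largest fall, 5hmC losses covered between 13.7% and 50.9% of the region.

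Among distal gains with at least 10 CpGs, the 3 farthest from any start site had no 5hmC loss. They were chr5:79679019-79681069, 1341 kb from Adgrl3 (from 37.3% to 58.6%), chr3:44080338-44080538, 1298 kb from 2610316D01Rik (from 63.5% to 75.4%), and chr1:103154007-103154128, 1259 kb from Gm28187 (from 74.1% to 92.0%). The last 2 were repeat over their whole length, and the part of reads from other copies was not tested. The most CpGs, 70 in 632 bp, were at chr12:18387367-18387998 (72.2% GC), which went from 35.2% to 49.6% without a 5hmC loss. The next 4 had 58 to 65 CpGs over 2326 to 2867 bp and each held at least 2 separate 5hmC losses. One of them, chr13:107150165-107153031, rose from 26.7% to 65.7%.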

How the data were processed

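Genomic DNA of whole retinas was profiled by WGBS and bACE-seq, and groups were taken from the sample labels. The submitters' processing notes name Trim Galore (0.4.4), Bismark (0.18.2), SAMtools (1.15.1) and MethylDackel (0.6.1) with mm10. The authors called regions with DSS, which smooths levels between neighbouring CpGs (p threshold 0.01, at least 3 CpGs and 50 bp). The deposited group means are a fraction from 0 to 1, given here as percentages, and Cre- is the first group by the list's name. The authors' difference and area statistic, 2 columns of each list, were not used. The number of CpGs per region was used as deposited, and equalled that of the reference in 99.5% of the distal gains.

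Classes followed GENCODE M21 basic: start sites of 32093 protein-coding and long noncoding genes, and the bodies of all 55450 genes of any type. Promoters reached 2 kb from a start site. Levels of overlapping 5hmC regions were averaged by overlapped bases, and means over regions were weighted by CpGs. Repeats are the lower-case bases of the reference. The regions named were those with the largest rise, fall in 5hmC, distance or CpG number among those with at least 10 CpGs, those beside each limit, the 6 listed genes with the most distal gains and the 3 fullest windows of 1 Mb. Of these, 1 gene and 1 region are not reported here. The members, the gene lists and the motifs were chosen with earlier results of these data known. The overlap and distance code was tested on simulated regions. Python (3.11.15), numpy (2.4.6) and pandas (2.3.3) were used. The files give no replicate values or depth, so no test was run, and precision between animals is unknown.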

Additional observations from a re-analysis of the deposited data

How the results depend on the processing

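No paired analysis was possible because each list holds only 1 mean per group, and for the same reason no replicate could be left out. Of 61 alternative values, 31 stayed within the margin set for them, with no change of sign for log2 ratios. The margin was 1.5 times for counts and ratios, 2 points for levels and a 95% binomial interval for shares. That interval treats regions as independent, which they are not. Wider windows or neighbour distances can only raise a share, and a stricter overlap can only lower it, so the tally is not a measure of robustness. With protein-coding and long noncoding genes alone as bodies there were 18802 distal gains, with start sites over 100 kb away 9929, and with at least 10 CpGs 5405 (13.3 per 10000 distal CpGs). With at least 10 CpGs the levels were 52.5% in Cre- and 71.8% in Tet tcKO. The share on a 5hmC loss was 55.0% when at least 50% of the region had to be covered, 51.1% with 5hmC regions that differed by at least 0.1, and 91.1% with at least 10 CpGs. A neighbour was found within 5 kb for 45.5% and within 50 kb for 89.4%. With protein-coding start sites only, 394 regions were nearest to a listed gene.

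In windows of 500 bp the shares with a motif were 21.3% for TAATCC, 25.1% for TAATTA, 28.1% for CAGCTG, 39.0% for CAGATG, 29.2% for AGGTCA, 36.9% for TGCTGA, 16.8% for TGANTCA, 31.4% for AACAAT, 28.7% for TTGGCA, 10.0% for MEF2 and 0.188% for CTCF. The log2 ratio to distal tiles changed sign for 3 motifs. Over all tiles, tiles with at least 4 CpGs, and regions and tiles with at least 4 CpGs and no repeat (both added after seeing the data), it was -0.28, 0.13 and 0.22 for AACAAT, -0.43, 0.53 and 0.70 for MEF2 and 0.79, -0.28 and -0.29 for CTCF. For TAATTA it was 0.44, 1.16 and 0.84, and for CAGCTG 1.19, 0.69 and 0.54, with no change of sign. The cause was not tested. The strata of CpG number and the restricted tiles by distance were also added after seeing the data. Depth limits every level, and it is unknown here.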

Other observations

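The distal gains that the limits left out differed from those kept in the same 5hmC list. Of the 3613 with a Cre- level of 80% or more, 58.0% overlapped a 5hmC loss, and their mean WGBS level went from 85.1% to 93.3%. Of the 866 with a Cre- level below 20%, 29.7% overlapped a 5hmC loss, and they went from 14.1% to 33.4%. The 312 others, long or with a large rise, overlapped one in 50.3% of cases and went from 32.1% to 73.6%. Each of these shares was below the 70.2% of the distal gains described above, and the difference was not tested.

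Among the 346 of 497 bins of 5 Mb with the most distal CpGs, the rate of distal gains per 10000 distal CpGs was lowest on chromosome 7 (chr7:30000001-35000000), with 1 region, and highest on chromosome 9 (chr9:60000001-65000000), with 86 regions and a rate of 160.

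The overlap with 5hmC losses was highest at a middle CpG density, and the 5hmC level where there was an overlap fell with density. Below 1 CpG per 100 bp, 45.8% of 1700 regions overlapped a 5hmC loss, with 18.7% 5hmC in Cre-. Between 1 and 2 it was 68.0% of 8375 regions, with 17.3%, and between 2 and 4 it was 78.7% of 7433 regions, with 15.4%. From 4 CpGs per 100 bp it was 66.98% of 1078 regions, with 13.5%. The WGBS rise was 23.1 points in the sparsest and 13.7 points in the densest. From sparsest to densest, the median region had 5, 6, 8 and 5 CpGs and 736, 430, 310 and 103 bp. The sparsest and the densest regions had the same median of 5 CpGs, with overlaps of 45.8% and 66.98%. The parts of density and CpG number were not tested.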
